A study of Homo sapiens with 16 samples.

Results

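The genes described here encode the proteins of the mitochondrial ribosome and the core machinery that imports proteins into mitochondria. They were chosen by name: every gene of the count table annotated as protein-coding whose symbol begins with MRPL, MRPS, TIMM or TOMM followed by a digit. The rule gave 103 of the 58735 genes in the table, of which 19951 are protein-coding. By symbol, 49 belong to the large ribosomal subunit (MRPL) and 29 to the small one (MRPS), although the MRPS18A and MRPS30 proteins are known to sit in the large subunit. Roles here follow the symbol alone, so a member need not be a ribosomal protein of the subunit it is counted in. Of the 25 import genes, 10 belong to the outer membrane TOM complex or are relatives of its subunits, 7 to the TIM23 translocase of the inner membrane, 3 to the TIM22 translocase and 5 to the small TIM chaperones between the membranes.

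The 16 RNA-seq libraries come from 4 lines of human breast cancer cells and fall into 8 groups of 2. For both HCC1806 and BT474 the groups are a flat monolayer, spheroids (three-dimensional balls of cells) taken on day 10 after seeding, and spheroids taken on day 20. ZR-75-30 and CAL148 are represented by a monolayer group alone. The labels name no drug and no genetic change, each line stems from 1 tumour, and all were fed 10% serum. HCC1806 and ZR-75-30 were kept in RPMI and BT474 and CAL148 in DMEM, so line and medium cannot be told apart between those pairs. The groups come from the sample titles, since a treatment label names the monolayer for all 16 libraries. The labels do not say that the 2 libraries of a group came from separate cultures, so p-values here measure the spread between these libraries, which may be technical.

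Mitochondria keep a small genome that encodes subunits of the respiratory chain, and the mitochondrial ribosome translates only those messages. Its own proteins are encoded in the nucleus, made in the cytosol and imported. Most imported proteins pass the outer membrane through the TOM pore, and those with an N-terminal targeting sequence then cross the inner membrane through TIM23, pulled by an ATP-driven motor. Carrier proteins of the inner membrane are instead handed by small TIM chaperones to TIM22. Many genes of this system have short promoters rich in binding letters for ETS family factors, YY1 and NRF1.

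The promoters of 4 members are shown because these genes carry the 2 main results: TOMM40, TIMM50 and MRPS12 separated HCC1806 monolayers from spheroids, and MRPL45 separated the lines. Each run is the coding strand of RefSeq's GRCh38.p14, 250 bases before the RefSeq start and 30 from it on, with capitals for 3 motifs searched on both strands: CCGGAAG for ETS factors, AAGATGG (or CCATCTT on the other strand) for YY1 and the E-box CACGTG. TOMM40 at chr19:44891004-44891283 held none of them. This window lies inside the gene as annotated by GENCODE, whose start is further upstream, so the letters around that start were not searched. TIMM50 at chr19:39480588-39480867 held the YY1 letters just after the start. MRPS12 at chr19:38930694-38930973 held the ETS letters at the start and the YY1 letters, reversed, upstream. MRPL45 at chr17:38296918-38297197 held an E-box and, just after the start, the YY1 letters.
TOMM40: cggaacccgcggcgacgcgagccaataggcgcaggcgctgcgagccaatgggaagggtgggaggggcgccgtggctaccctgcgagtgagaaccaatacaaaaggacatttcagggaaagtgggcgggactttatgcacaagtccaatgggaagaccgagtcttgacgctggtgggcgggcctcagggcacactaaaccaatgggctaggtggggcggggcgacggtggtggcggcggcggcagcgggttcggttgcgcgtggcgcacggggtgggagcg
TIMM50: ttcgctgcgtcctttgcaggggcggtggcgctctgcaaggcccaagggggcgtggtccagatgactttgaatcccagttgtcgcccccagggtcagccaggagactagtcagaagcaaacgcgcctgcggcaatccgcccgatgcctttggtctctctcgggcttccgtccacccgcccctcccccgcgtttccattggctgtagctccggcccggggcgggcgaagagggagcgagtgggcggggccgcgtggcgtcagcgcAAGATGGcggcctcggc
MRPS12: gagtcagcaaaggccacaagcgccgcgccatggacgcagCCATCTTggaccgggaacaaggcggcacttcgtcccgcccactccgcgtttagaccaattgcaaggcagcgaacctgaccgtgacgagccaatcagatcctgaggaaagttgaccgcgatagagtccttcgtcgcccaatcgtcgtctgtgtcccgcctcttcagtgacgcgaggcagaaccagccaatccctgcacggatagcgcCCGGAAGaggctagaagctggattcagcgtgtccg
MRPL45: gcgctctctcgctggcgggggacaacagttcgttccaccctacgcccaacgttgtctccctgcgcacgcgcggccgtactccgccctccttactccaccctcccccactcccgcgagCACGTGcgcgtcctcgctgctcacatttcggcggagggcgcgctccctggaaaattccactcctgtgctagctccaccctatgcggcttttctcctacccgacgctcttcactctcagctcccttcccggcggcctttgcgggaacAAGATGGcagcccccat

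A RefSeq promoter was found for 92 of the 103 members. The ETS letters were in 40 of them (43.5%) against 14.1% of all 14896 promoters in the table and 16.7% of the 11923 whose genes were tested. The YY1 letters were in 24 (26.1%) against 5.70% of all and 6.07% of the tested. The NRF1 letters CGCATGCG were in 5 (5.43%) against 2.84% and 3.40%, and the E-box in 8 (8.70%) against 8.68% and 9.37%. With none of the 4 motifs there were 32 members, with 1 kind 44, with 2 kinds 15 and with 3 kinds 1. A match is a run of letters and not a measured binding site.

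Library totals ran from 29.7 to 72.5 M counts, so the floor of 3 counts lay between 0.0414 and 0.101 CPM. CPM stands for counts per M counts of the library, its total adjusted by trimmed-mean factors. The 2 HCC1806 monolayer libraries stood far apart, and so did the 2 of ZR-75-30. Taken over genes, the log2 ratio of the 2 replicates had an SD of 1.87 in HCC1806 monolayers, 1.13 in ZR-75-30 and 0.966 in CAL148, against 0.499 to 0.630 in the other 5 groups. Transcripts of the mitochondrial genome took 17.8% of the counts in HCC1806 monolayer replicate 1 and 0.768% in replicate 2, and 1.96% and 20.5% in the 2 ZR-75-30 libraries, while the other 12 lay between 1.09% and 6.30%. The levels in the 2 HCC1806 monolayer libraries are therefore given apart. The cells carried epithelial markers (EPCAM, KRT8, KRT18, KRT19 and CDH1, summed 1710 to 8580 CPM), with CDH1 low in ZR-75-30 at 8.35 and 9.75 CPM. The 5 fibroblast markers summed to 1.79 to 102 CPM, nearly all of it COL1A1, the 4 endothelial ones to 0.195 to 8.60 CPM and the 5 leukocyte ones to 0.0557 to 25.0 CPM, where LYZ made up most of the sum in the BT474 spheroids, the highest. The pan-leukocyte gene PTPRC was at most 0.109 CPM.

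Of the 103 members, 96 had a mean of at least 5 CPM over the 16 libraries. The other 7 were MRPL38, MRPL46, MRPL53, MRPS24, TOMM5, TOMM6 and TOMM20L. TOMM6, a small TOM subunit, had 0 counts in every library, and all its annotated exon bases lie inside another gene. Exon bases shared with another gene occur in 54 members and pseudogenes named after the member in 40, so that reads of these genes may be split or lost. TIMM23 and TIMM23B are near-identical copies and their separate values are uncertain.

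On the length-scaled FPKM the members had a median of 18.1 over all libraries. The highest means were 154 FPKM for MRPL45, a protein near the exit tunnel of the large subunit, 133 for MRPS34, 119 for the TOM receptor TOMM20, 82.9 for MRPS26 and 80.2 for MRPL41. The lowest after TOMM6 were MRPS24 (0.0976), TOMM5 (0.173), TOMM20L (0.223) and MRPL38 (0.482). MRPL45 led because of 2 lines, with 296 to 326 FPKM in BT474 and 162 and 245 in ZR-75-30 against 20.0 to 30.7 in HCC1806 and CAL148. TOMM20 was high throughout, between 84.9 and 203 FPKM.

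Together the members took 0.671 to 0.707% of all counts in the 6 BT474 libraries, whether monolayer or spheroid. In HCC1806 they took 0.646% and 0.556% in the 2 monolayers and 0.404 to 0.423% in the 4 spheroids, the lowest shares of the series. CAL148 gave 0.649% and 0.659% and ZR-75-30 0.640% and 0.689%. Transcripts of the mitochondrial genome take part in these totals. Of the counts outside that genome, the members took 0.786% and 0.560% in the 2 HCC1806 monolayers and 0.414 to 0.434% in its spheroids. On that scale BT474 had 0.707 to 0.724%, CAL148 0.661% and 0.678%, and ZR-75-30 0.653% and 0.867%. The order of the lines thus depends on the scale, while the HCC1806 spheroids stay lowest. Counting the group whose mean was highest for each of the 96 better measured members, ZR-75-30 had 34, HCC1806 monolayers 28, BT474 monolayers 12 and its spheroids 11 and 5, CAL148 had 6 and the HCC1806 spheroids 0. The means of ZR-75-30 and of HCC1806 monolayers each average 2 unlike libraries, so a member may rank highest there through 1 library. The lowest group was HCC1806 day 20 for 40 members, CAL148 for 21 and HCC1806 day 10 for 18. The range of a member's group means had a median of 1.52 on the log2 scale (edgeR's log2 CPM with a prior count of 2), and 23 members spanned more than 2.

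**Figure D1:**
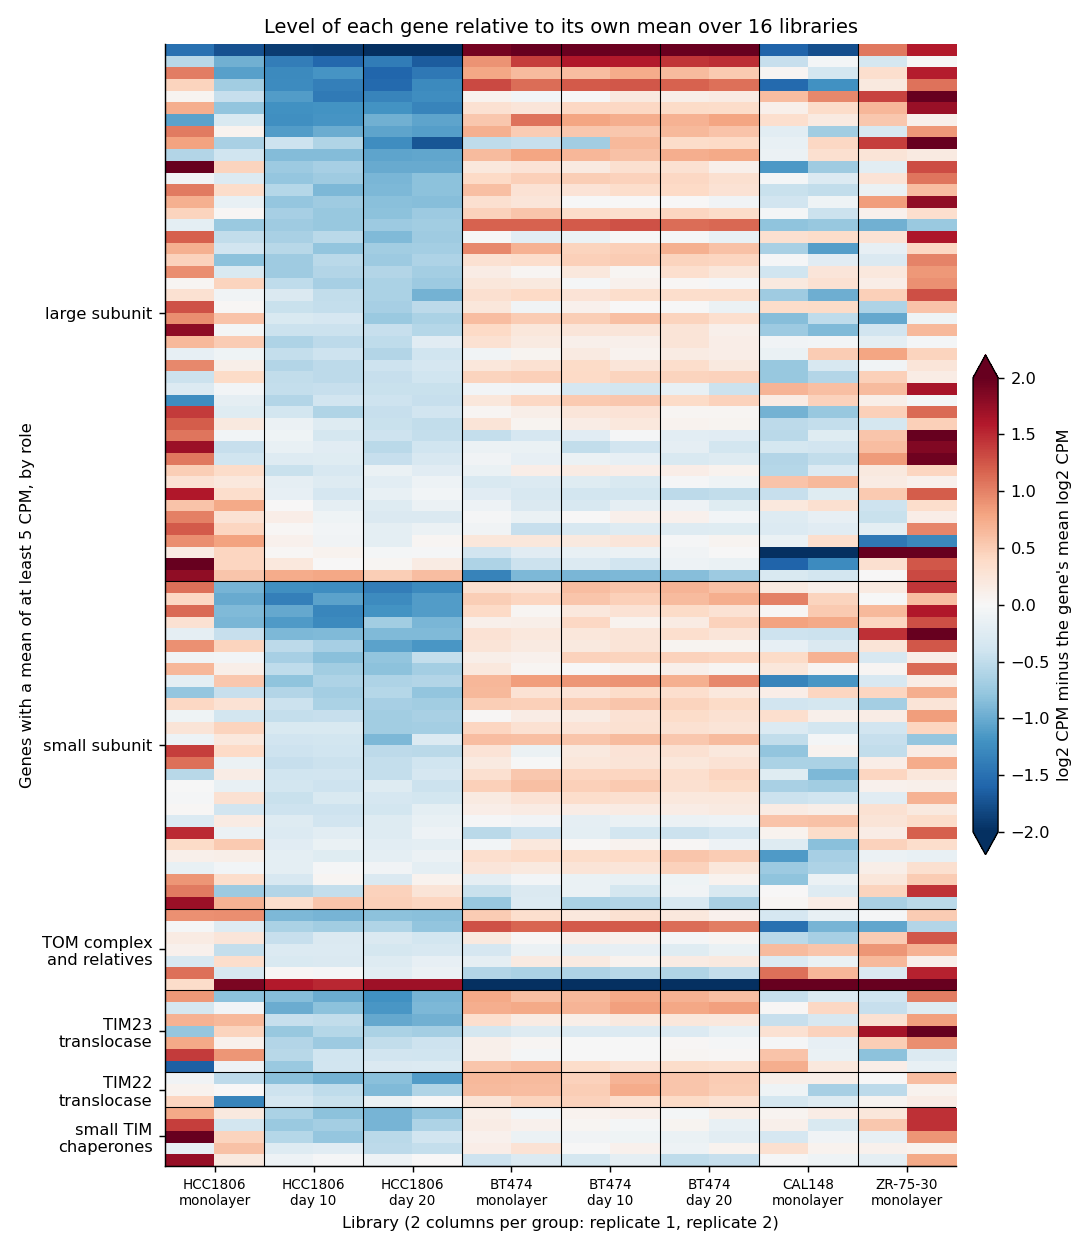
Each row is 1 of the 96 members with a mean of at least 5 CPM, sorted by role and then by level in the HCC1806 spheroids, and each column is 1 library. Colour is the log2 CPM minus the gene's own mean. The 4 HCC1806 spheroid columns are blue in most rows, the BT474 columns are pale red and alike, and the 2 columns of HCC1806 monolayers and of ZR-75-30 differ from each other.

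In HCC1806, most ribosome and import genes were lower in spheroids than in monolayers. For 72 of the 102 members tested, both monolayer libraries lay above all 4 spheroid libraries, a pattern found in 13.4% of all genes tested. For 0 of the 102 members both lay below, against 20.7% of all genes. In another 14 members replicate 1 alone lay above the spheroids, in 11 replicate 2 alone, and 5 had another order. By role the 72 were 37 of 49 large subunit genes, 20 of 29 small subunit genes, 5 of 7 TIM23 genes, 2 of 3 TIM22 genes, all 5 small TIM chaperones and 3 of the 9 TOM genes tested.

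In the fit of the 12 HCC1806 and BT474 libraries, edgeR's quasi-likelihood test with Benjamini-Hochberg adjustment called 30 members lower at day 10 (3.58% of all 20929 genes were called lower) and 36 at day 20 (4.85%). None was called higher at either day. At an unadjusted p under 0.05 the day 10 counts were 67 lower and 0 higher. At day 20 they were 72 lower and 0 higher. The share of all genes under that looser cut is not given here, so the size of these counts is not read. DESeq2 and limma on log2 FPKM also gave 0 higher with an unadjusted p under 0.05. The median log2 fold change of the members was -0.76 at day 10 and -0.84 at day 20, and that of all genes 0.00 at both. Both days use the same 2 monolayer libraries, so they are not separate evidence, and 27 members were called at both.

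The number called turned on single libraries. Without monolayer replicate 1, 70 members were called lower and 1 higher at day 10 (19.0% of genes called lower) and 72 lower and 2 higher at day 20 (20.2%). Without replicate 2, the counts were 79 lower and 3 higher (23.2% of genes lower) and 80 lower and 3 higher (23.3%). In these fits the lone monolayer library is assumed to vary like the other groups. The medians were -0.50 and -0.55 against replicate 2 and -0.98 and -0.99 against replicate 1, beside 0.06 to 0.15 for all genes. Lower in both fits were 57 members at day 10 (6.55% of genes) and 60 at day 20 (7.41%), and these held all 30 and all 36 of the full fit. Without day 10 replicate 1 or 2 the day 10 count fell to 1 or 2, without either day 20 library the day 20 count fell to 5, and without 1 library of another group day 10 kept 14 to 19 and day 20 kept 19 to 23. With the 6 HCC1806 libraries alone edgeR called 0 members at either day. At an unadjusted p under 0.05, 45 and 51 were lower, again without a share of all genes to set beside them.

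**Figure D2:**
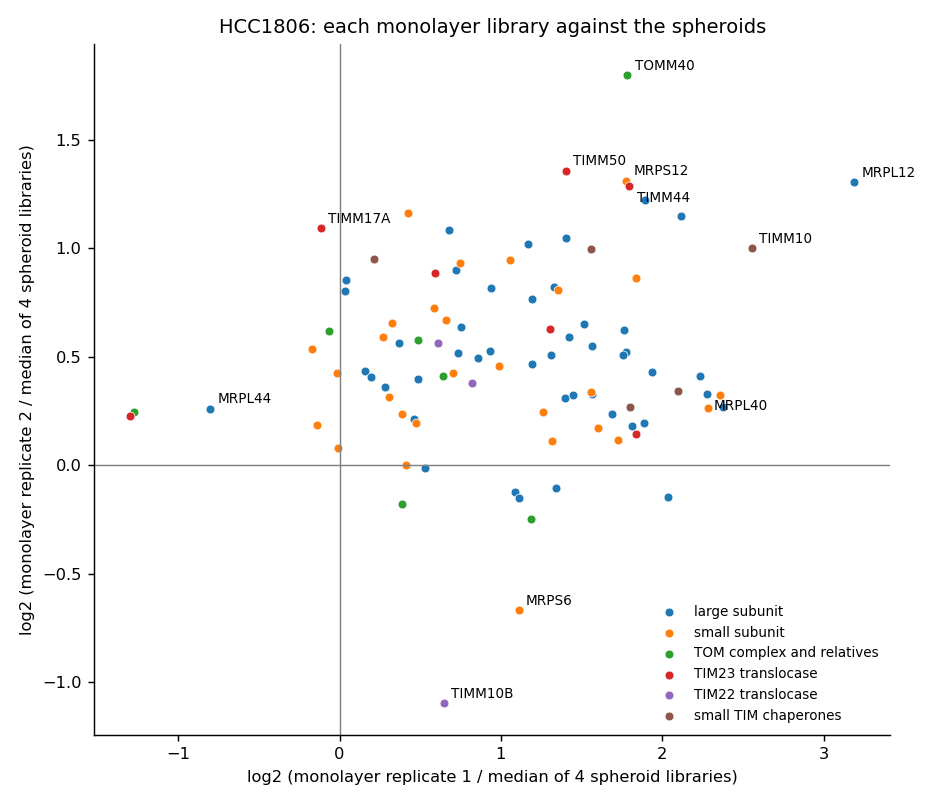
Each point is 1 member with a mean of at least 5 CPM; the axes are the log2 ratio of HCC1806 monolayer replicate 1 (horizontal) and replicate 2 (vertical) to the median of the 4 spheroid libraries, coloured by role. Most points lie in the upper right, above the spheroids in both libraries. TOMM40, TIMM50, TIMM44 and MRPS12 are high on both axes, while TIMM10B, MRPS6 and MRPL44 change side between the libraries.

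TOMM40, which forms the pore of the outer membrane, gave the steadiest difference. It lies at chr19:44890569-44903689 in the GENCODE annotation of GRCh38 and shares no exon base with another gene. It read 240 and 242 CPM in the monolayers, 68.2 and 66.8 at day 10 and 72.5 and 71.2 at day 20. The 2 monolayers were alike, the 4 spheroid libraries were alike, and the groups lay far apart. The log2 fold change was -1.84 (SE 0.15, edgeR adjusted p = 0.000973) at day 10 and -1.75 (adjusted p = 0.00095) at day 20. Against replicate 2 alone it was -1.92 and -1.83, and against replicate 1 alone -1.82 and -1.73. Among the other TOM genes, TOMM22, a receptor that also organises the complex, read 68.7 and 73.0 CPM against 44.9 to 50.5 in spheroids (log2 fold change -0.58, adjusted p = 0.0455 at day 10; not called at day 20). The receptor TOMM70 read 113 and 181 CPM against 115 to 127, TOMM20 435 and 294 against 319 to 340, and the small subunit TOMM7 248 and 91.8 against 99.3 to 117. In these 3 genes the 2 monolayer libraries fell on either side of the spheroids or within them.

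TIMM50, the TIM23 receptor that takes precursors from TOM, read 130 and 126 CPM in monolayers, 58.6 and 56.9 at day 10 and 39.5 and 41.4 at day 20. All 3 groups were separate and in descending order. The log2 fold change was -1.16 (SE 0.14, edgeR adjusted p = 0.00383) at day 10 and -1.67 (adjusted p = 0.00095) at day 20. TIMM44, which tethers the import motor to TIM23, read 158 and 111 CPM against 41.0 to 45.8 in the 4 spheroids, a log2 fold change of -1.65 (SE 0.19, adjusted p = 0.0034) and -1.56 (adjusted p = 0.0028). The channel gene TIMM23 read 113 and 70.7 against 40.4 to 49.9 CPM and TIMM21 16.9 and 20.7 against 9.68 to 12.2, and both were called at both days. The paralogs TIMM17A and TIMM17B went opposite ways in the 2 monolayers: TIMM17A read 49.4 and 114 CPM against 49.7 to 56.8 in spheroids, and TIMM17B 116 and 35.9 against 27.2 to 35.1. The FPKM ratio of TIMM17A to TIMM17B was accordingly 0.312 and 2.31 in the 2 monolayers and 1.03 to 1.46 in the spheroids.

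The chaperones of the intermembrane space were high in both monolayers but unequally so. TIMM10 read 120 and 40.8 CPM in monolayers and 17.6 to 22.9 in spheroids, with a log2 fold change of -2.10 at day 10 (SE 0.42, edgeR adjusted p = 0.02) and -1.90 at day 20 (adjusted p = 0.0242). TIMM13 read 151 and 102 against 46.9 to 57.7 CPM and was called at both days (-1.23 and -1.36). TIMM9 (49.6 and 14.7 against 9.96 to 12.4), TIMM8A (10.8 and 18.0 against 8.34 to 10.2) and TIMM8B (154 and 53.2 against 43.0 to 46.7) were not called. Of the TIM22 genes, TIMM29 was called lower at day 20 (-0.78, adjusted p = 0.0248), with 30.2 and 29.2 CPM in monolayers and 15.6 and 19.1 at that day. TIMM22 itself read 18.9 and 13.9 against 9.17 to 11.2 CPM and was not called. TIMM10B read 52.6 and 15.7 against 28.8 to 39.2, so it was called lower against replicate 1 and higher against replicate 2 at both days.

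In the small ribosomal subunit, MRPS12, a protein of the decoding site, read 98.3 and 71.2 CPM in monolayers, 36.4 and 32.8 at day 10 and 24.7 and 23.2 at day 20. The log2 fold change was -1.30 (edgeR adjusted p = 0.00616) and then -1.83 (SE 0.19, adjusted p = 0.00167). Its exons share 16.3% of their bases with SARS2 on the other strand, and strand use in the counting is not given in the sources used here. MRPS7 read 81.0 and 92.0 CPM, then 54.4 in both day 10 libraries and 41.8 and 42.1 at day 20 (-0.68 and -1.05, both called). MRPS15 read 134 and 68.2 against 35.4 to 39.2 CPM and was called at both days (-1.38 and -1.50). MRPS18A, MRPS18B and MRPS18C, 3 versions of one bacterial protein, were not called: MRPS18A read 18.2 and 19.3 CPM in monolayers against 17.5 to 19.7 in spheroids, MRPS18B 212 and 91.2 against 70.9 to 74.9, and MRPS18C 19.8 and 13.7 against 8.57 to 11.3.

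In the large subunit, MRPL12, a protein of the stalk that binds translation factors, had the lowest log2 fold changes of all members: -2.38 (SE 0.50, edgeR adjusted p = 0.0237) and -2.69 (adjusted p = 0.0143). Its 2 monolayers read 71.7 and 19.4 CPM and its spheroids 7.09 to 8.97, so the groups did not overlap, but 68.2% of its exon bases are shared with AC139530.2 on the same strand. MRPL4 read 97.0 and 75.6 CPM in monolayers, 41.1 and 40.5 at day 10 and 30.3 and 32.8 at day 20 (-1.09 and -1.46, both called). MRPL11 read 139 and 58.3 against 36.2 to 42.4 CPM and was called at day 20 (-1.38, adjusted p = 0.0376). MRPL3 (105 and 184 against 98.4 to 108) and MRPL13 (82.2 and 99.4 against 71.9 to 77.4) were not called. MRPL44, a subunit with a ribonuclease fold, read 14.8 and 30.9 against 23.3 to 26.9 CPM and was called higher against replicate 1 and lower against replicate 2. MRPS6 joined MRPL44 and TIMM10B at day 20 as the only 3 members called in opposite directions against the 2 monolayers.

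**Figure D3:**
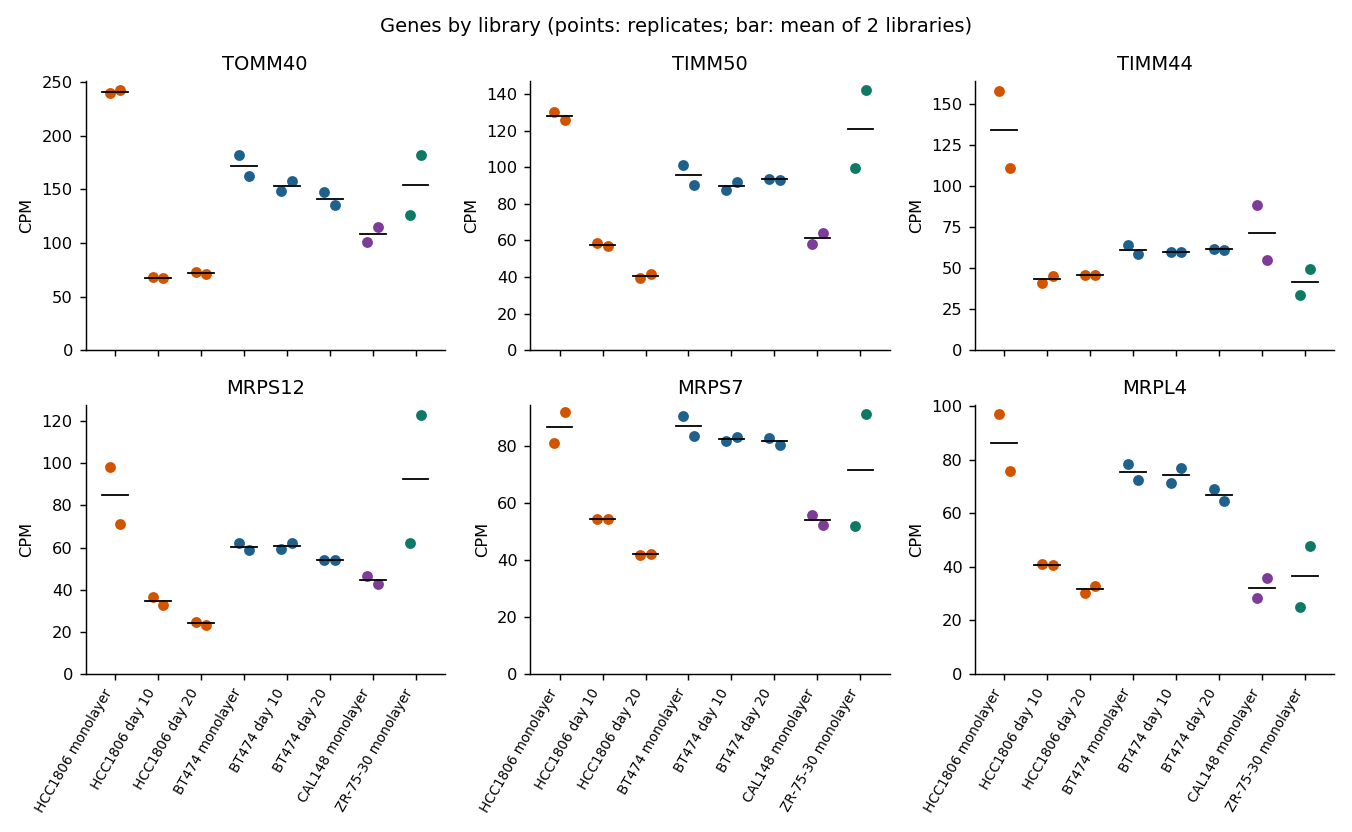
CPM of TOMM40, TIMM50, TIMM44, MRPS12, MRPS7 and MRPL4 in every library (points), with the mean of the 2 libraries of a group (bars) on a linear axis from 0. HCC1806 monolayers lie above the HCC1806 spheroids in all 6 panels, and in each panel the 6 BT474 libraries span less than the HCC1806 ones.

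The size of the change also moved with transcript length, in a different way for each monolayer library. Among protein-coding genes at day 10, the median log2 fold change against replicate 1 was -0.95 under 1000 bases of exon, -0.91 from 1000 to 2000, -0.25 from 2000 to 4000 and 0.56 above. The members in those classes had -1.27, -1.30, -0.84 and -0.54, lower than the class in each case. Against replicate 2 the 284 genes under 1000 bases had a median of 0.51 and the 3 members among them -0.23. The 3 longer classes had medians of 0.00, 0.02 and 0.02, and the members in them -0.42, -0.52 and -0.52. The part of length in these values was not tested further. With library factors computed without mitochondrially encoded genes, 31 members were called at day 10 and 36 at day 20.

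Other genes of the pathway were taken from lists of textbook members with other names. Their counts are read against the 3.58% and 4.85% of all genes called lower at day 10 and day 20, and every list gene called lower in the fit of 12 libraries was also called lower against each monolayer library alone. GADD45GIP1 of the large subunit read 240 and 114 CPM in the 2 monolayers against 43.5 to 61.4 in spheroids (-1.60 and -2.0, edgeR adjusted p = 0.0168 and 0.00708). AURKAIP1 of the small subunit read 382 and 163 against 81.3 to 92.0 (-1.63 and -1.73, called at both days), and DAP3 93.9 and 115 against 66.0 to 72.7 (-0.64, called at day 10 only). In all 3 both monolayers lay above the spheroids. Of 25 assembly factors 5 fell at day 10 (20.0%) and 7 at day 20 (28.0%), above the share of all genes. Among them MPV17L2 read 27.3 and 19.2 against 9.13 to 9.72 CPM and the methyltransferase MRM2 123 and 127 against 61.7 to 72.8. Of 16 translation factors 2 and 3 fell, with the RNA-binding protein SLIRP (90.9 and 33.5 against 17.2 to 19.4 CPM) and the elongation factor TUFM (246 and 294 against 154 to 178) at both days. Of 18 further import genes 3 fell at each day, with CHCHD4, which drives oxidative import into the intermembrane space, at both (20.3 and 22.3 against 9.85 to 10.6) and the motor chaperone HSPA9 at day 10 (566 and 529 against 332 to 395). Of 16 processing and folding genes 3 and 2 fell, the co-chaperonin HSPE1 (76.5 and 48.3 against 22.3 to 24.6) and the protease subunit CLPP (149 and 110 against 59.1 to 73.1) at both. These 3 lists had few calls, at shares of 12.5 to 18.8%. Of 17 aminoacyl-tRNA synthetases 1 (5.88%) and 2 (11.8%) were called lower, CARS2 at both days (166 and 149 against 78.3 to 87.5 CPM), and of 9 genes for mitochondrial transcription and DNA SSBP1 alone (116 and 71.8 against 41.6 to 46.3). These last 2 lists rest on 1 or 2 genes each, so nothing is read from their shares.

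The 13 proteins encoded in mitochondria summed to 191000 and 5500 CPM in the 2 monolayers and 6560 to 17300 in the spheroids. Their median log2 fold changes were -3.02 and -2.60, with 0 of 13 called by edgeR and 9 and 4 at an unadjusted p under 0.05. The 2 monolayers lay on either side of the spheroids, so no direction is drawn. Of 9 regulators of mitochondrial biogenesis, PPARGC1A, a coactivator of these genes, was called higher at both days (adjusted p = 0.00188 and 0.00068). It had 0 counts in both monolayers, where the floor is 0.0926 and 0.0828 CPM, and read 0.77 and 0.68 CPM at day 10 and 2.41 and 2.27 at day 20, higher than at day 10 by 1.69 on the log2 scale (adjusted p = 0.00104). The ETS factor subunit GABPA read 10.5 and 41.5 against 31.0 to 37.2 CPM, NRF1 15.3 and 28.2 against 20.7 to 23.6, YY1 124 and 167 against 146 to 169, and MYC 117 and 208 against 173 to 212. None of these 4 was called.

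Between day 10 and day 20, HCC1806 spheroids changed in few members. In the fit of 10 libraries without the HCC1806 monolayers, edgeR called 5 of 102 (6.80% of all 20606 genes were called). MRPS12 fell by 0.52 on the log2 scale (adjusted p = 0.00315), TIMM50 by 0.51 (adjusted p = 0.00203), MRPS7 by 0.37 (adjusted p = 0.0109) and MRPL4 by 0.37 (adjusted p = 0.0232). MRPS6 rose by 0.89 (SE 0.14, adjusted p = 0.00128), from 13.7 and 14.8 CPM to 28.2 and 24.5. In all 5 genes the 2 days did not overlap. MRPS6 shares 9.61% of its exon bases with SLC5A3 and another gene on its own strand, and its 2 monolayers read 42.5 and 12.4 CPM. TOMM40 held at 66.8 to 72.5 CPM. Without day 10 replicate 1 the count was 2, without replicate 2 it was 3, without day 20 replicate 2 it was 3, without either BT474 monolayer it was 9 and with the HCC1806 monolayers added it was 0.

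In BT474, spheroids and monolayers differed little in these genes. Both monolayers lay above all 4 spheroids in 13 of 102 members and below in 12, together 25 (35.5% of all genes lay on either side). edgeR called 4 members at day 10 (12.2% of all genes were called) and 5 at day 20 (14.6%), and the median log2 fold changes were 0.00 and -0.01. At day 10 the large subunit gene MRPL16 rose by 0.44 (SE 0.13, adjusted p = 0.0482) and the small subunit gene MRPS21 by 0.27 (adjusted p = 0.0352), and MRPL48 fell by 0.38 (adjusted p = 0.0312) and MRPL51 by 0.29 (adjusted p = 0.0214). At day 20 MRPL40 (0.40), MRPS21 (0.32) and MRPL13 (0.27) rose, and MRPL51 (-0.32) and TOMM40 (-0.29) fell. MRPS21 read 91.0 and 88.9 CPM in monolayers, 111 and 107 at day 10 and 117 and 109 at day 20. TOMM40 read 182 and 162 CPM, then 148 and 158, then 147 and 135.

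These few calls were not stable. Without BT474 day 10 replicate 1 there was 1 at day 10, without replicate 2 there were 0, and without either day 20 library there were 0 at day 20. Leaving out either day 20 library or either HCC1806 day 10 library left 2 at day 10, leaving out monolayer replicate 2 gave 6 at day 10 and 9 at day 20, and adding the HCC1806 monolayers gave 0 at both days. Between the 2 BT474 days edgeR called 0 of 102 (0.281% of all genes), with 2 at an unadjusted p under 0.05, both lower, and 0 by DESeq2 and by limma. The mitochondrially encoded proteins had medians of 1.13 and 1.35 in BT474, with 0 of 13 called and 3 and 7 at an unadjusted p under 0.05.

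Whether the spheroid effect differed between the lines was tested directly, a test chosen after the data were seen. At day 10 the difference was called for TOMM40 (-1.67, edgeR adjusted p = 0.0119), TIMM44 (-1.61, adjusted p = 0.0324) and TIMM50 (-1.06, adjusted p = 0.0454), 3 of 102 members (0.392% of all genes were called lower). At day 20 it was called for 8 (0.980%): those 3, MRPS2, MRPS7, MRPS12, MRPL4 and TIMM13. In each the log2 fold change in HCC1806 was below that in BT474. The median difference over the members was -0.78 and -0.86, against -0.02 and 0.00 over all genes. With 1 library left out, the members' median difference ran from -1.01 to -0.58 at day 10 and from -1.04 to -0.61 at day 20. Without either HCC1806 monolayer library the tests called more members, but the lone library then has no replicate spread of its own. Without 1 library of another group they called 0 or 1. The change from day 10 to day 20 differed between the lines in 2 members (2.67% of all genes): TIMM50 with -0.57 (adjusted p = 0.0175) and MRPS6 with 0.83 (adjusted p = 0.0355). Without HCC1806 day 20 replicate 2 there were also 2, without either BT474 monolayer 3, without BT474 day 10 replicate 2 there was 1, and without any other single library 0.

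**Figure D4:**
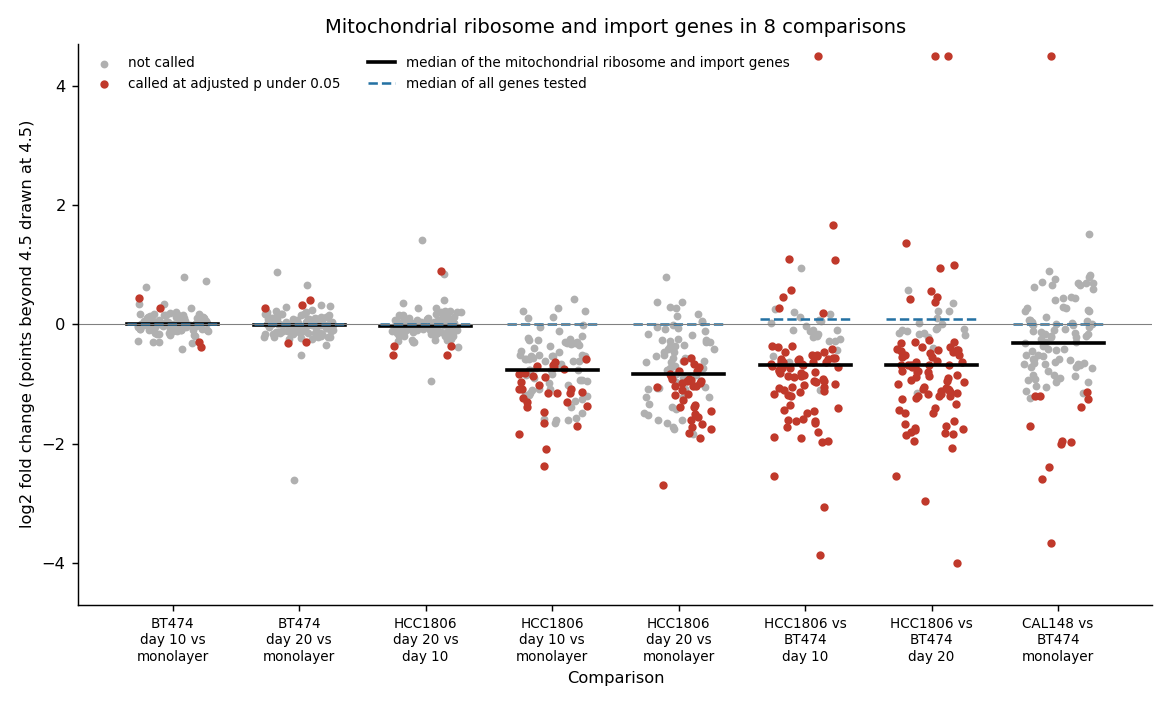
Log2 fold changes of the 100 to 102 members tested (points, spread sideways to show them) in 8 comparisons, with called members in red, the members' median as a black bar and the median of all genes as a dashed line. 4 points beyond 4.5 are drawn at that edge. The members centre on 0 within BT474 and between the HCC1806 days, and below 0 in the HCC1806 spheroids and in the line comparisons.

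Between the lines, most members were lower in HCC1806 spheroids than in those of BT474. Comparing spheroids, all 4 HCC1806 libraries lay below all 4 of BT474 in 76 of 102 members (34.9% of all genes) and above in 10 (38.6%). edgeR called 71 members lower in HCC1806 at day 10 (33.2% of all genes) and 8 higher (37.5%), and 74 lower (33.6%) and 9 higher (37.7%) at day 20. The median log2 difference was -0.68 at both days, against 0.08 and 0.09 for all genes. Medium differs with the line here, and 1 line stands on each side. All 7 TIM23 genes and all 3 TIM22 genes were lower at both days, and at day 20 so were 34 of 49 large subunit genes, 22 of 29 small subunit genes, 4 of 5 small TIM chaperones and 4 of 9 TOM genes.

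The lowest 3 at both days were MRPL45, MRPL16 and MRPL27 of the large subunit. MRPL45 read 37.5 and 37.1 CPM in HCC1806 day 10 spheroids, 33.5 and 34.9 at day 20, and 545 to 557 in the 4 BT474 spheroids, a log2 difference of -3.87 (SE 0.08, edgeR adjusted p = 5.26e-14) and -4.00 (SE 0.08, adjusted p = 4.82e-14). MRPL16 read 17.4 to 21.2 against 148 to 168 CPM (-3.06 and -2.97). MRPL27 read 22.9 to 28.0 against 144 to 158 CPM (-2.54 at both days). None of the 3 shares exon bases with another gene. Of the named import genes, TIMM17B was lower by 1.62 and 1.70 on the log2 scale, TIMM22 by 1.46 and 1.48, TOMM40 by 1.17 and 0.96 and TIMM44 by 0.46 and 0.42.

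A few members were higher in HCC1806. MRPL33 read 56.8 to 68.6 CPM in its spheroids against 21.4 to 24.2 in those of BT474 (log2 difference 1.66 at day 10 and 1.36 at day 20), MRPS31 24.1 to 27.7 against 12.1 to 15.1 (1.07 and 0.94) and TOMM7 99.3 to 117 against 75.1 to 82.9 (0.58 and 0.38). MRPS6 was called higher at day 20 only (0.55, adjusted p = 0.00238). TOMM40L, a paralog of the TOM pore gene, read 7.93 to 9.02 CPM in HCC1806 spheroids and 0.157 to 0.558 in BT474 spheroids. It was called higher at both days, with no fold given since BT474 lay near the floor. TOMM40L shares 20.2% of its exon bases with other genes. In the named lists at day 20, 17 of 25 assembly factors, 9 of 16 translation factors and 10 of 17 synthetases were called lower in HCC1806. So were 14 of 18 further import genes and 12 of 16 folding genes. In the same order of lists, 2, 2, 5, 3 and 1 were called higher. Of all genes tested, 33.6% were called lower and 37.7% higher. Among the regulators at day 10, PPARGC1A (-3.2), ESRRA (-1.34) and GABPB1 (-0.52) were called lower in HCC1806, and GABPA (0.85) and MYC (1.03) higher. At that day 33.2% of all genes were called lower and 37.5% higher.

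**Figure D5:**
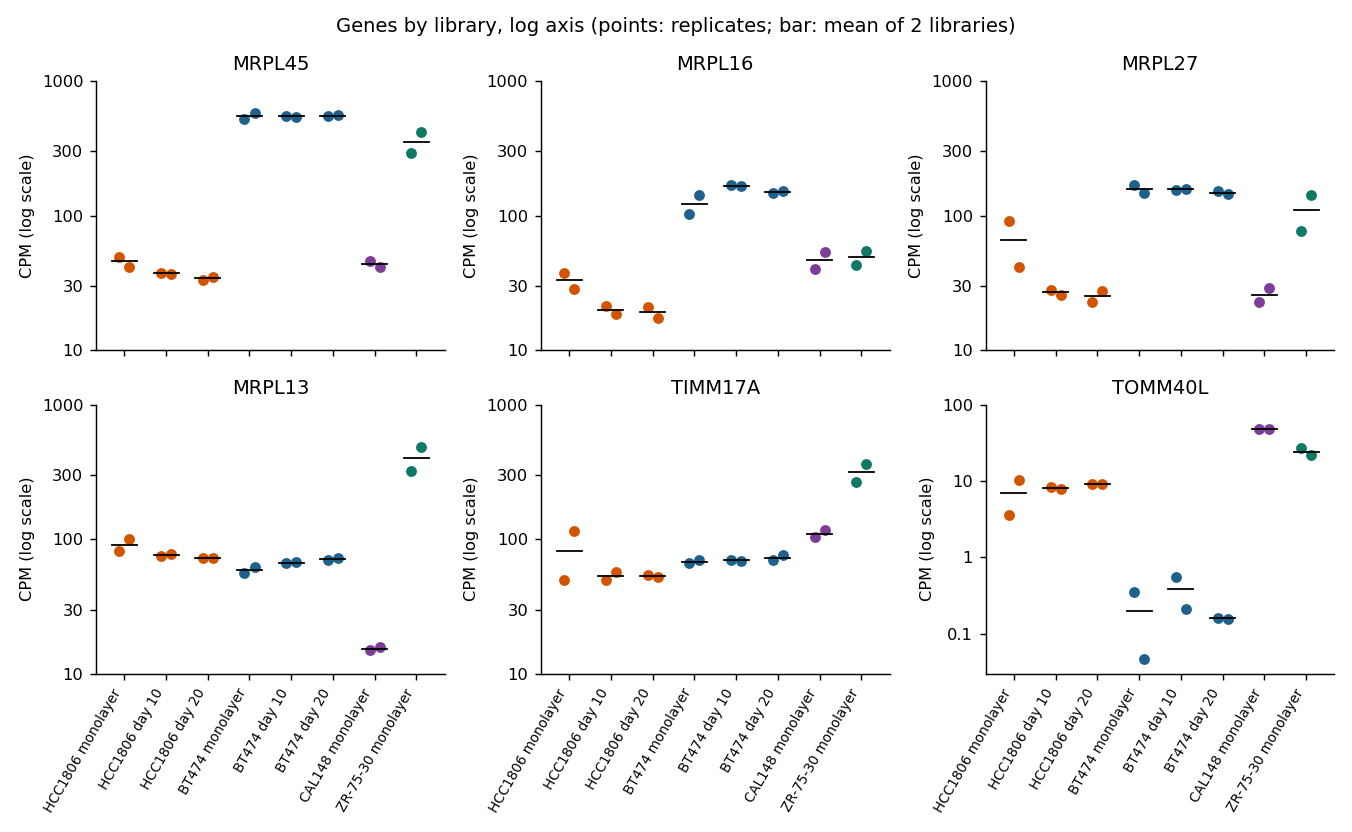
CPM of MRPL45, MRPL16, MRPL27, MRPL13, TIMM17A and TOMM40L in every library (points) on a log axis, with the mean of each group as a bar. MRPL45 and MRPL27 are high in BT474 and ZR-75-30, MRPL16 in BT474 alone, MRPL13 and TIMM17A in ZR-75-30, and TOMM40L is under 1 CPM in BT474.

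MRPL45 lies at chr17:38297023-38323218 in GRCh38, 1.36 megabases from ERBB2 at chr17:39687914-39730426, the receptor gene amplified in many breast cancers. ERBB2 read 5890 to 9160 CPM in BT474 and ZR-75-30 and 114 to 336 in HCC1806 and CAL148, the same division as MRPL45, which read 526 to 577 CPM in BT474, 291 and 419 in ZR-75-30 and 33.5 to 49.6 in the other 2 lines. Over the 12 other protein-coding genes with a mean of at least 5 CPM within 0.5 megabases of MRPL45, the median log2 difference from HCC1806 spheroids was 2.61 in BT474, 3.35 in ZR-75-30 and 0.55 in CAL148, and that of MRPL45 was 3.95, 3.29 and 0.29. In BT474 the neighbours and the gene had 2.01 and 2.9 for MRPL16 on chromosome 11, and 2.0 and 2.56 for MRPL27. For MRPL49 they had 1.15 and 1.91, and for MRPS23 0.71 and 1.15. For MRPL13 they had 1.88 and -0.17, for TOMM34 0.21 and 1.85, and for TIMM17A -0.84 and 0.39. TOMM40L, near the floor in BT474, was lower there while its neighbours had 1.35. Gene copy number was not measured, and its part was not tested.

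Of the other 8 members on chromosome 17, MRPL27, 10.64 megabases from ERBB2, had group means of 148 to 157 CPM in BT474 and 109 in ZR-75-30 against 25.3 to 66.1 in the other lines. MRPS23 had 71.8 to 74.3 in BT474 and 206 in ZR-75-30 against 32.6 to 48.7. TIMM22 had 28.6 to 31.1 CPM in BT474, 25.2 in ZR-75-30, 21.5 in CAL148 and 10.2 to 16.4 in HCC1806. By group mean, MRPL10 (31.0 to 61.0 CPM), MRPL58 (19.0 to 57.7), MRPS7 (41.9 to 86.9) and MRPL12 (7.11 to 45.6) were all highest in HCC1806 or BT474 monolayers, and MRPL38 was at most 2.32. Taken apart, the 2 HCC1806 monolayers read 91.0 and 41.3 CPM for MRPL27, 76.0 and 46.0 for MRPL10 and 70.8 and 44.5 for MRPL58. They read 81.0 and 92.0 for MRPS7 and 71.7 and 19.4 for MRPL12. In HCC1806 against BT474 spheroids, 7 of the 9 members on chromosome 17 were called lower at day 10 and 8 at day 20, with 0 higher. Of all genes, 33.2% and 33.6% were called lower. The median log2 difference of these members was -1.02 and -1.20, against 0.00 and 0.03 for the 922 protein-coding genes tested on that chromosome. Lower members were not particular to chromosome 17. On the other chromosomes with at least 9 members tested, the members' medians were -0.53 and -0.68 (chromosome 1), -0.70 and -0.60 (chromosome 11) and -0.81 and -1.07 (chromosome 19).

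TOMM40L had the widest range of levels, from 0.0471 to 0.558 CPM in the 6 BT474 libraries to 47.2 and 47.3 in CAL148, with ZR-75-30 at 27.0 and 21.6 and HCC1806 at 3.59 to 10.3. No fold is given for that range, since BT474 lay near the floor. The group means of MRPL13 spanned 4.68 on the log2 scale, with 14.9 and 15.8 CPM in CAL148, 56.1 to 99.4 in BT474 and HCC1806 and 323 and 481 in ZR-75-30. MRPL45 spanned 4.01, MRPL23 3.36 and MRPL16 3.13. TIMM17A rose in order from HCC1806 spheroids (49.7 to 56.8 CPM) over BT474 (66.1 to 75.7) and CAL148 (104 and 116) to ZR-75-30 (266 and 360), while its paralog TIMM17B read 95.6 to 107 in BT474 and 45.9 to 52.2 in CAL148. The FPKM ratio of TIMM17A to TIMM17B was 0.449 to 0.577 in BT474, 1.66 and 1.63 in CAL148 and 4.04 and 2.06 in ZR-75-30. ZR-75-30 is described by levels alone, because its 2 libraries stood apart: the median member lay 0.136 and 0.642 above its 16-library mean on the log2 scale.

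CAL148 was set against BT474 among monolayers, in a fit with ZR-75-30 that tested 100 members. edgeR called 12 lower (12.1% of all 18224 genes) and 1 higher (9.62%), with a median log2 difference of -0.31 against 0.01 for all genes. The share called lower was that of genes at large. Both CAL148 libraries lay below both of BT474 in 53 of the 100 members (36.8% of all genes) and above in 19 (36.5%). MRPL45 read 46.0 and 41.4 CPM against 526 and 577 (-3.66, SE 0.32, adjusted p = 0.000984) and MRPL27 22.8 and 29.0 against 168 and 146 (-2.60, adjusted p = 0.00489). TOMM34, a cytosolic cochaperone of import, read 28.8 and 42.6 against 195 and 181 CPM (-2.40, adjusted p = 0.00399). MRPS9, MRPL49, MRPL13, MRPL48, MRPL16, MRPS22, MRPS30, MRPL36 and MRPL3 were lower by 1.13 to 2.0 on the log2 scale. The 1 higher was TOMM40L (adjusted p = 0.00141), for which no fold is given since BT474 read 0.356 and 0.0471 CPM, the second below the floor of 0.0718. Without ZR-75-30 replicate 1 or 2 the fit called 46 members (37 lower and 9 higher), and without 1 library of CAL148 or BT474 it called 6 or 7.

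The members with and without a motif were also compared by fold change, with no test. At day 10 in HCC1806 the 39 tested members with ETS letters had a median log2 fold change of -0.77 and the 52 without -0.70, with 14 and 15 called lower. Against monolayer replicate 1 alone these medians were -1.0 and -0.82, and against replicate 2 alone -0.56 and -0.50. For the YY1 letters the medians were -0.55 in 24 members and -0.86 in 67, with 8 and 21 called lower. Against replicate 1 alone they were -0.54 and -1.21, and against replicate 2 alone -0.52 in both sets. Between the lines at day 20 the medians were -0.47 with and -0.81 without the ETS letters, and -0.64 with and -0.78 without the YY1 letters. In the windows printed above, TOMM40 held none of these letters and MRPS12 held both kinds. Both genes were picked for being lower in HCC1806 spheroids, so nothing about the letters is read from them.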

How the data were processed

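Poly(A)-selected RNA was sequenced as 150 base read pairs, per the labels' protocols. The authors used HISAT2 2.2.1, featureCounts 2.0.6 and the GRCh38 build, per the submitters' processing notes. Whether counting used strand is not given in the sources used here. The deposited table holds raw counts for 58735 genes. Even numbers outweigh odd ones among its low counts, as if each pair gave 2 counts, so floors may be too low. The deposited FPKM values, which the authors made from the same counts, served to compare levels between genes and for 1 alternative (limma on log2(FPKM + 0.1)). GENCODE 29 gave coordinates and exon overlap, and RefSeq's GRCh38.p14 the promoters.

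Tests were robust quasi-likelihood F tests of edgeR 4.0.16 in R 4.3.3, with TMM factors and a filterByExpr minimum of 10 counts and 15 in total, with p-values adjusted by Benjamini-Hochberg over all genes tested and called under 0.05. HCC1806 day 20 against day 10, BT474 and line comparisons came from 10 libraries without the HCC1806 monolayers, HCC1806 spheroids against monolayers from 12, and CAL148 against BT474 from 6 monolayer libraries. CPM are TMM-scaled over all 16. Scripts were tested on simulated data. Alternatives were DESeq2 1.42.0 factors and test, limma 3.58.1, library factors without mitochondrially encoded genes, other count filters and library sets, a replicate block and leaving out each library. The members and lists were chosen with earlier results of these data known. Members given in full are a panel by role, the 3 highest and 3 lowest called per comparison with a mean of at least 5 CPM and no overlap between groups, the 5 extremes by FPKM and by range, and those on chromosome 17. MRPL44, TIMM10B, TIMM21, TIMM29, PPARGC1A and the regulators without a call were named after their values were seen.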

Additional observations from a re-analysis of the deposited data

Results flagged for a closer look

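HCC1806 and BT474 were tested for a difference in the spheroid effect at day 10, in that at day 20 and in the change between those days. In at least 1 of these 3 tests 9 distinct members passed. The tests of the day 10 and day 20 effect were chosen after the data were seen and share the HCC1806 monolayers, whose 2 libraries differ. All values are log2 differences, HCC1806 minus BT474, from edgeR's quasi-likelihood test with Benjamini-Hochberg adjustment.

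At day 10, TOMM40 differed by -1.67, TIMM44 by -1.61 and TIMM50 by -1.06. At day 20 the import genes TOMM40 (-1.46), TIMM44 (-1.57), TIMM50 (-1.63) and TIMM13 (-1.37) and the ribosome genes MRPS12 (-1.67), MRPL4 (-1.29), MRPS2 (-0.97) and MRPS7 (-0.96) differed. In the change from day 10 to day 20, TIMM50 differed by -0.57 and MRPS6 by 0.83, the latter the only positive value. TIMM50 passed in all 3 tests. They are not separate evidence, since the difference in the change between days is the day 20 difference minus the day 10 one. Of these genes TOMM40, TIMM50 and MRPS2 had the closest pair of HCC1806 monolayer values (240 and 242, 130 and 126, and 67.1 and 62.1 CPM), whereas MRPS6 read 42.5 and 12.4 CPM. The part of the difference between the 2 monolayer libraries in the day 10 and day 20 calls was not tested beyond leaving out each. That raised the calls, in fits where the lone monolayer library has no replicate spread of its own. Leaving out 1 library of another group instead removed most or all of them.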

How the results depend on the processing

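The 5 called values of named members that changed sign all came with 1 HCC1806 monolayer library left out, in spheroids against monolayers. Without replicate 1 and without replicate 2, MRPL44 was -0.38 and 0.78 at day 10 and -0.35 and 0.82 at day 20, TIMM10B 0.85 and -0.80 at day 10 and 1.18 and -0.47 at day 20, and MRPS6 1.00 and -0.68 at day 20. Named members kept their side of the threshold, with no called sign change, in 3491 of the values with 1 library left out (151 gained and 327 lost the call) and in 2974 under the other alternatives (68 gained, 103 lost). Among these, 153 and 27 values that were called in neither fit changed sign. Counts of members called that moved by more than 1.5 times are given here. The cause was not tested, except that fits with fewer libraries have less to test with.

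Adding the HCC1806 monolayers (12 libraries) gave 0 calls in BT474 at day 10 and at day 20, 0 in HCC1806 day 20 against day 10, 0 for the line difference in that change, and 54 against 83 between the lines at day 20. The HCC1806 libraries alone gave 0 at both days. DESeq2 called 68 and 71 members in HCC1806 spheroids at day 10 and 20 (30 and 36 with edgeR), 8 between the 2 days (5), 22 in CAL148 (13), and 36 and 39 for the line difference in the spheroid effect (3 and 8). limma on log2 FPKM called 2 in BT474 at day 10 (4), 1 for the line difference in the change between days (2), and 9 and 13 for that in the spheroid effect. With no count filter the latter counts were 14 and 19, and with a minimum count of 30 the day 10 count was 6. All 16 libraries gave 27 for CAL148. The share of all genes called is not given for these alternatives, nor for CAL148 with 1 library left out. A larger count in them is therefore not read as a stronger result.

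Leaving out 1 library gave 0 to 6 members in BT474 at day 10, 0 to 9 at day 20, and 0 between its days. It gave 2 to 9 between the HCC1806 days, 0 to 3 for the line difference in that change, 74 to 80 and 79 to 85 between the lines at day 10 and 20, 1 to 82 and 5 to 83 in HCC1806 spheroids against monolayers, and 6 to 46 in CAL148. For the line difference in the spheroid effect it gave 0 to 80 at either day.

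Same-numbered libraries do not share a source by the labels, and over 28 pairs of groups the correlation of their deviations ran from -0.441 to 0.0781, so the numbers do not pair them. With the replicate block the line difference in the spheroid effect was called for 1 member at day 10 and 4 at day 20. The other counts with the block were 3 and 5 in BT474, 0 between its days, 5 between the HCC1806 days, 2 for the line difference in that change, 80 and 83 between the lines, 25 and 32 in HCC1806 spheroids, and 12 in CAL148.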
